A study of Microtus ochrogaster with 40 samples.

Results

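Cholinergic interneurons of the nucleus accumbens were described from 712 nuclei, 0.383% of the 185995 nuclei kept from 40 prairie voles (Microtus ochrogaster). A barcode was kept with at least 500 UMIs (unique molecular identifiers, each a counted RNA molecule) and at most 5% of them from the 13 mitochondrial genes. A kept barcode was called a cholinergic nucleus when its UMIs of Chat and Slc5a7 summed to at least 2 and it held no UMI of Slc17a7, DRD1A or Adora2a. Chat is choline acetyltransferase, which makes acetylcholine, and Slc5a7 is the high-affinity choline transporter that supplies it. Slc17a7, the vesicular glutamate transporter of cortical projection neurons, and DRD1A and Adora2a, receptors of the D1 and D2 medium spiny neurons, were used to leave out other neurons and mixed barcodes. The nuclei were thus chosen by measured UMIs, and the levels of these 5 genes in the 712 nuclei describe the choice and are given without a test. Another gene of the rule, the vesicular acetylcholine transporter gene Slc18a3, gave no value and was not used here.

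Nuclear RNA was sequenced by droplet single-nucleus methods from 1 animal per library. Each vole was housed for 16 days beside a partner of the other sex, called a mate, or of its own sex, called a peer. Of the females, 11 had a mate and 8 a peer, and of the males 11 had a mate and 10 a peer, so every animal had a partner and no group lived alone. Genotype, age and drug treatment are not given in the sources used here, nor is it given which animals lived together, and animals that shared a cage may not be independent.

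Cholinergic interneurons are a small class of large, spontaneously active neurons that release acetylcholine across the striatum, where most other neurons are GABAergic medium spiny neurons. Their pauses and bursts accompany rewarding and salient events, and their nicotinic and muscarinic targets act on dopamine terminals and on medium spiny neurons. They derive from the medial ganglionic eminence and its neighbours, where the transcription factors Nkx2-1 and Lhx8 act.

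The libraries held 1793 to 8204 kept nuclei each, with a median of 662 UMIs per nucleus in the shallowest library, male mate 2, and 2201 in the deepest. Between 3 and 39 cholinergic nuclei were found per animal, with a median of 17, and 33 animals had at least 10. The cholinergic nuclei had a median of 2768.5 UMIs (quartiles 1359.25 and 3720.5) and of 1982 genes, and in 38 of 40 animals their median depth was above that of the whole library. The caller marked 13 of the 712 nuclei (1.83%) as doublets, against 7608 (4.09%) of all kept nuclei. Barcodes with Slc17a7, DRD1A or Adora2a were left out only of the 712, so the 2 rates cannot show which nuclei are purer. Of the 712 barcodes, 161 were also kept in another library, and none was a cholinergic nucleus in both. In all, 19903 of the 164425 kept barcode sequences occurred in more than 1 library.

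Both rule genes were seen in 555 of the 712 nuclei (77.95%), Chat without Slc5a7 in 49 and Slc5a7 without Chat in 108. The sum was exactly 2 in 147 nuclei and at least 3 in 565. Just outside the threshold lay 635 nuclei with a sum of 1, which met all other conditions, and which had a median of 886 UMIs. Ecel1, which encodes a neuronal peptidase, was detected in 25.04% of these nuclei and in 72.79% of the 147 nuclei with a sum of 2. For Lhx8 the shares were 10.71% and 40.14%. Markers of cholinergic neurons that the rule did not read were thus present on both sides of the threshold, more often inside it. Just outside, 42.2% of nuclei also carried Pdgfra, a receptor gene of oligodendrocyte precursors, against 11.56% just inside.

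Detection of the other cholinergic markers rose with the rule sum. Among the 120 nuclei with a sum of at least 10, Ecel1 was seen in 99.17%, Lhx8 in 95.83% and Slc17a8 in 67.5%. Among the 77922 nuclei with no UMI of either rule gene that met the other conditions, the shares were 3.05%, 0.579% and 0.118%. Depth rose in the same order, from a median of 841 UMIs at a sum of 0 and 946 at a sum of 2 to 4696 at 10 or more, and its part in the rise was not tested. Slc32a1, the vesicular GABA transporter gene, went the other way, from 22.94% at a sum of 0 to 3.33% at 10 or more. A further 62 nuclei with a sum of at least 2 were left out for a Slc17a7 UMI, and 54 for a DRD1A or Adora2a UMI. Lhx8 was seen in 67.74% and 59.26% of them, so the rule also left out barcodes with cholinergic RNA.

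**Figure D1:**
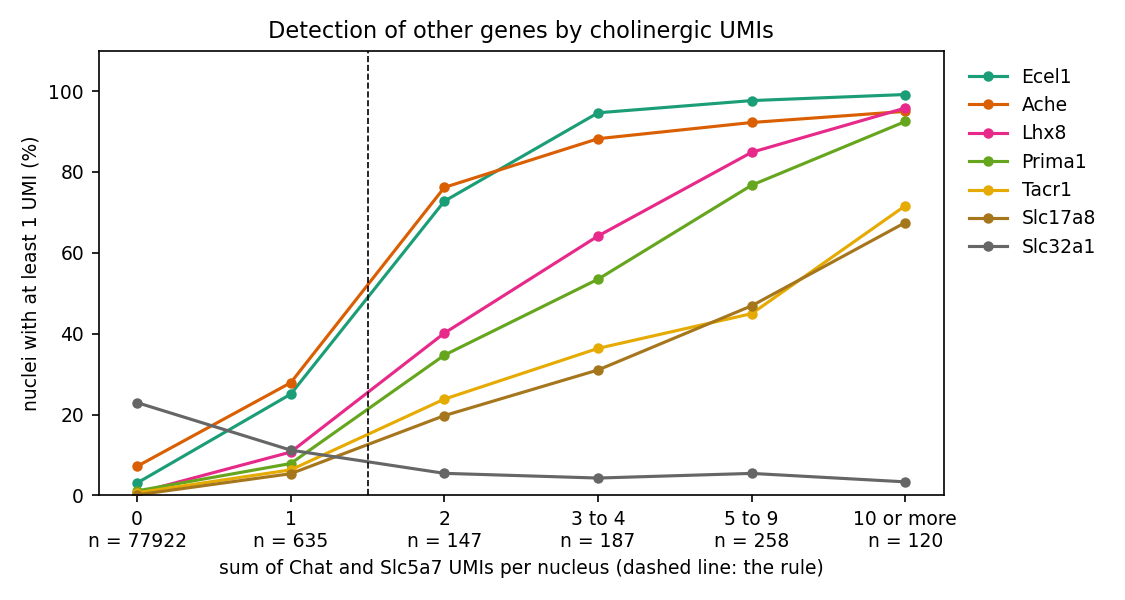
Percent of nuclei with at least 1 UMI of 7 genes (y axis) by the sum of Chat and Slc5a7 UMIs (x axis, with the number of nuclei), among nuclei that met the other conditions of the rule. The lines for Ecel1, Ache, Lhx8, Prima1, Tacr1 and Slc17a8 climb to between 67.5% and 99.17% at 10 or more UMIs, and the line for Slc32a1 falls from 22.94% to 3.33%.

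The label was checked against 12 cholinergic markers that the rule did not read, of which 10 were used. Ecel1 was detected in 655 of the 712 nuclei (91.99%, 95% Clopper-Pearson interval 89.75 to 93.88), Ache in 629 (88.34%), Lhx8 in 513 (72.05%) and Prima1 in 460 (64.61%). A background was read from 12631 nuclei with oligodendrocyte UMIs, which had a median of 719 UMIs. The shares there were 1.44% for Ecel1, 2.52% for Ache, 0.198% for Lhx8 and 3.88% for Prima1. Prima1 was at 35.5 CPM there, beside 481.5 CPM in the cholinergic nuclei. Thinned to 1000 UMIs, which left 577 nuclei and dropped 135 shallower ones, Ecel1 was seen in 77.99% and Lhx8 in 54.42% of the cholinergic nuclei, against 1.38% and 0.360% of 3331 oligodendrocyte nuclei. The intervals cover counting error only. The marker Gbx1 was at 0.

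Described by their own variable genes, the 712 nuclei fell into 3 clusters. The 399 nuclei of the largest were led by mitochondrial genes, Sst and Stmn1 and had a median of 0.622% mitochondrial UMIs. Leading genes were ranked by summed UMIs, and Sst was seen in only 5.51% of these 399 nuclei. The 294 nuclei of the next were led by Npas4 and Rfc3 and had 0.150%. Ecel1 was found in 94.99% of the former and 93.54% of the latter, Lhx8 in 66.42% and 84.35%, and Slc17a8 in 42.11% and 41.16%. Ngfr, a trophic receptor gene, was seen in 3.51% of the former and 0% of the latter. Over all 712 nuclei Ngfr had 108 UMIs in 15 nuclei, 10 of which held at least 2. Whether the nuclei with Ngfr are interneurons was not tested. The 19 nuclei of the last cluster went against the label. They came from 13 libraries, were led by Gpr17, Bcas1, Ptprz1, Pdgfra and Cspg4, genes of the oligodendrocyte lineage, and had a median of 900 UMIs. Every one of them entered through Slc5a7 with no Chat UMI. Ecel1 was seen in 5.26% of them and Lhx8 in none. Because they hold no Chat, the tests of shares and of genes below were also made over the 604 nuclei with a Chat UMI. This alternative was chosen after seeing the data. The detection shares and marker levels below are over all 712 nuclei, these 19 among them.

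Markers of other cells were present at levels from 1.46 to 814.5 CPM (counts per 1000000 UMIs), summed over each list. The highest were the 10 markers of other interneurons, at 814.5 CPM and with a UMI in 479 nuclei, a list that holds Calb2, which cholinergic nuclei carried themselves. The 8 markers of medium spiny neurons summed to 432.5 CPM, with a UMI in 378 nuclei. The 10 cholinergic markers not read by the rule came to 6233 CPM. Of the glutamate neuron list, Slc17a7 (by the rule) and Slc17a6 were at 0, and the summed level of the 4 listed genes was 3.88 CPM. The 3 endothelial genes reached 1.46 CPM and the 4 microglial genes 23.3. The 4 listed oligodendrocyte genes summed to 280 CPM and the 5 astrocyte genes to 145. Th, the gene of dopamine synthesis, had no UMI in 712 nuclei, which allows a share of nuclei with a Th UMI of up to 0.421% (3 counts of 712, counting error only) and does not limit the share that express it.

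Some transmitter and lineage genes were detected in only a part of the nuclei. Slc17a8 encodes VGLUT3, the vesicular glutamate transporter through which cholinergic interneurons can also release glutamate, and it was detected in 289 nuclei (40.59%, interval 36.96 to 44.3). In 289 nuclei with Slc17a8 the share with Lhx8 was 85.12%, and in the rest it was 63.12%, with median depths of 3394 and 2241 UMIs. The rest included the 19 nuclei of the last cluster, where neither gene was seen, and the part of depth was not tested. Isl1, a factor of striatal cholinergic differentiation, was seen in 95 nuclei (13.34%), and Lhx6, a factor of ganglionic eminence interneurons, in 90 (12.64%), with 18 nuclei holding both. Zic1 was seen in 147 nuclei (20.65%). Against the nuclei with oligodendrocyte UMIs, where Isl1 was seen in 0.150%, Lhx6 in 0.491% and Zic1 in 0.333%, each share was higher. Thinning to 1000 UMIs lowered the shares in the cholinergic nuclei to 20.97% for Slc17a8, 5.20% for Isl1, 5.55% for Lhx6 and 9.01% for Zic1.

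GABA genes were seen in few cholinergic nuclei. Gad1, which makes GABA, was detected in 93 nuclei (13.06%), Gad2 in 102 (14.33%) and the vesicular GABA transporter gene Slc32a1 in 34 (4.78%). In the oligodendrocyte nuclei, at less depth, the shares were 7.92, 10.73 and 6.22%. Thinned to 1000 UMIs, Gad1 was seen in 6.24% of cholinergic and 10.9% of oligodendrocyte nuclei, Gad2 in 6.59 and 16.54% and Slc32a1 in 2.43 and 9.10%. At this depth, which 3331 of the 12631 oligodendrocyte nuclei reached, all 3 shares were below those in the oligodendrocyte nuclei. The oligodendrocyte nuclei were chosen with no condition on Slc17a7, DRD1A or Adora2a, so mixed barcodes with these genes were left out only among cholinergic nuclei. The 54 nuclei left out for a DRD1A or Adora2a UMI held Gad1 in 40.74%. The comparison thus cannot decide whether the GABA UMIs of cholinergic nuclei are expression, and no expression is claimed from them. Single nuclei with several UMIs were not judged by this. Of the 93 nuclei with Gad1, 26.88% held Gad2 and 18.28% held Lhx6. In the other nuclei these shares were 12.44% and 11.79%. The median depths were 3371 UMIs with Gad1 and 2686 without, and the part of depth was not tested. Sst and Npy, the peptides of another interneuron class, were seen in 28 and 27 nuclei (3.93 and 3.79%), near the 4.75 and 3.18% of oligodendrocyte nuclei, and 8 nuclei had at least 2 UMIs of Sst.

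Gene levels in the cholinergic nuclei were then compared with those of 4 other classes of neurons from the same libraries. The classes were set by like rules, with at least 2 UMIs of Sst (somatostatin, 3177 nuclei), Pvalb (parvalbumin, 338), DRD1A (D1, 22218) or Adora2a (D2, 15128) and none of the other rule genes. UMIs were summed per animal and class over the 10 animals with at least 10 nuclei in each of the 5 classes. These were 3 males and 2 females with a mate and 3 males and 2 females with a peer, with 240 cholinergic nuclei and 714761 UMIs among them. The 10 animals were compared within themselves, with edgeR's quasi-likelihood test and the animal as a block, over 6212 genes.

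Fewer genes were called between cholinergic nuclei and the other interneurons than between cholinergic nuclei and medium spiny neurons. Against somatostatin nuclei, 624 genes (10.0% of those tested) were higher and 852 (13.7%) lower in cholinergic nuclei at an edgeR adjusted p under 0.05. Against parvalbumin nuclei, 867 (14.0%) were higher and 941 (15.1%) lower. Against D1 nuclei the counts were 1560 (25.1%) and 1677 (27.0%), and against D2 nuclei 1580 (25.4%) and 1673 (26.9%). The classes differed in nuclei, from 143 parvalbumin to 6541 D1 nuclei in these animals, and the part of that in the counts was not tested. In all 4 comparisons, 300 genes (4.83%) were higher and 295 (4.75%) were lower in cholinergic nuclei. Over the nuclei with a Chat UMI these were 292 and 305, of which 279 and 271 were among the 300 and the 295. There, 6257 genes were tested. Of these, 1444, 1804, 3168 and 3161 were called against the somatostatin, parvalbumin, D1 and D2 nuclei, beside 1476, 1808, 3237 and 3253 of 6212. A gene that passed the filter on low counts only through cholinergic nuclei had to come out higher there. Genes that passed only through other classes had to come out lower in cholinergic nuclei than in those. Such genes were not counted apart, and their values here and below describe the classes.

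Of the 12 cholinergic markers that the rule did not read, 7 passed the filter on low counts, and all 7 were higher than in each of the 4 classes. A marker that passes only through the class where it is high had to differ, so the 7 are a description of the class. Ecel1, an endothelin-converting enzyme-like peptidase, had a lowest, median and highest level of 1413, 2235 and 2939 CPM in the cholinergic nuclei of the 10 animals. In somatostatin nuclei the highest animal had 117 CPM, in parvalbumin nuclei 108, in D1 nuclei 85.2 and in D2 nuclei 62.9. The animals of the classes did not overlap. Ecel1 differed on the log2 scale by 5.15 (SE 0.178, edgeR adjusted p = 3.84e-39) from somatostatin, 5.91 (SE 0.299) from parvalbumin, 5.40 (SE 0.131) from D1 and 5.92 (SE 0.144) from D2 nuclei.

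Of 9 listed genes that handle acetylcholine, 5 were tested, and 3 of these, Acly, Ache and Prima1, were higher in cholinergic nuclei than in all 4 classes. Acly is ATP citrate lyase, a source of the acetyl groups used by Chat, and its level ranged from 1761 over a median of 2931 to 3741 CPM in cholinergic nuclei. In no other class did an animal exceed 281 CPM. Its log2 fold changes were 4.16 (SE 0.103), 3.83 (SE 0.144), 4.86 (SE 0.082) and 4.86 (SE 0.085) against somatostatin, parvalbumin, D1 and D2 nuclei, with the highest edgeR adjusted p at 1.8e-36. Ache, the enzyme that splits acetylcholine, lay between 794 and 1907 CPM with a median of 1255. Somatostatin nuclei came nearest, with 238 to 474 CPM, and the log2 fold change was smallest against them at 1.76 (SE 0.106, edgeR adjusted p = 1.72e-24). The other classes were apart by 4.00 to 4.19. Prima1, which anchors acetylcholinesterase in the membrane, had 336 to 685 CPM, above every animal of every other class. Chka, choline kinase, was lower than in D1 (log2 fold change -0.62, edgeR adjusted p = 2.08e-05) and D2 nuclei (-0.66, edgeR adjusted p = 7.57e-06), and higher than in parvalbumin nuclei (0.58, edgeR adjusted p = 0.0373). Pcyt1a, an enzyme of phosphatidylcholine synthesis, was higher than in D1 (0.60, SE 0.180) and D2 nuclei (0.61, SE 0.182) and did not pass against somatostatin or parvalbumin nuclei (-0.07 in both).

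Transcription factors divided the cholinergic nuclei from both kinds of neighbour. Lhx8 was at 619, 705 and 962 CPM (lowest, median, highest), and the log2 fold change was 8.34 (SE 0.327) against somatostatin, 10.27 (SE 0.255) against D1 and 9.54 (SE 0.256) against D2 nuclei. Against parvalbumin nuclei it was 4.01 (SE 0.278), and there the highest animal reached 151 CPM while the median was 0. Nkx2-1, which specifies the medial ganglionic eminence, had 27.0 to 112 CPM and was higher than in somatostatin (2.93, SE 0.481), D1 (6.54) and D2 nuclei (6.85). Against parvalbumin nuclei Nkx2-1 did not pass the test (0.86, SE 0.481, edgeR adjusted p = 0.180). Lhx6, which continues the Nkx2-1 programme in interneurons, was lower than in somatostatin (-2.48, SE 0.285) and parvalbumin nuclei (-1.67, SE 0.384) and higher than in D1 (4.48, SE 0.526) and D2 nuclei (4.63, SE 0.554). Etv1 was also lower throughout, between -2.49 and -5.37 on the log2 scale, with 4 UMIs in the 240 cholinergic nuclei. The Zic genes and Isl1 did not pass the filter on low counts. Zic1 averaged 76.9 ± 36.1 CPM (SD, n = 10) in cholinergic nuclei, against 8.21 ± 7.07 in somatostatin nuclei, the highest of the others. Isl1 averaged 47.8 ± 30.0 CPM, and D1 nuclei came next at 8.27 ± 4.07.

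Of the genes of co-transmission, Slc17a8 was high in cholinergic nuclei and the GABA genes were low. Slc17a8 had 127, 220 and 267 CPM (lowest, median, highest), and 12.5 CPM was the highest level of any animal in another class. No UMI of Slc17a8 was found in the somatostatin nuclei of these 10 animals (2 in the 3177 of all animals), so its level was at least 140-fold higher in cholinergic nuclei (floor of 3 counts over the 10 animals). Gad1, Gad2 and Slc32a1 were all lower than in all 4 classes. Slc32a1 had 0, 10.5 and 71.9 CPM, while the lowest animal of any other class had 291 CPM. Its log2 fold changes ran from -4.54 (SE 0.236) against D2 to -5.14 (SE 0.259) against parvalbumin nuclei. Gad1 had 0, 54.4 and 264 CPM, below the lowest D2 animal at 280 CPM. Its log2 fold change was -2.24 (SE 0.240) against D2 and -5.40 (SE 0.193) against parvalbumin nuclei.

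**Figure D2:**
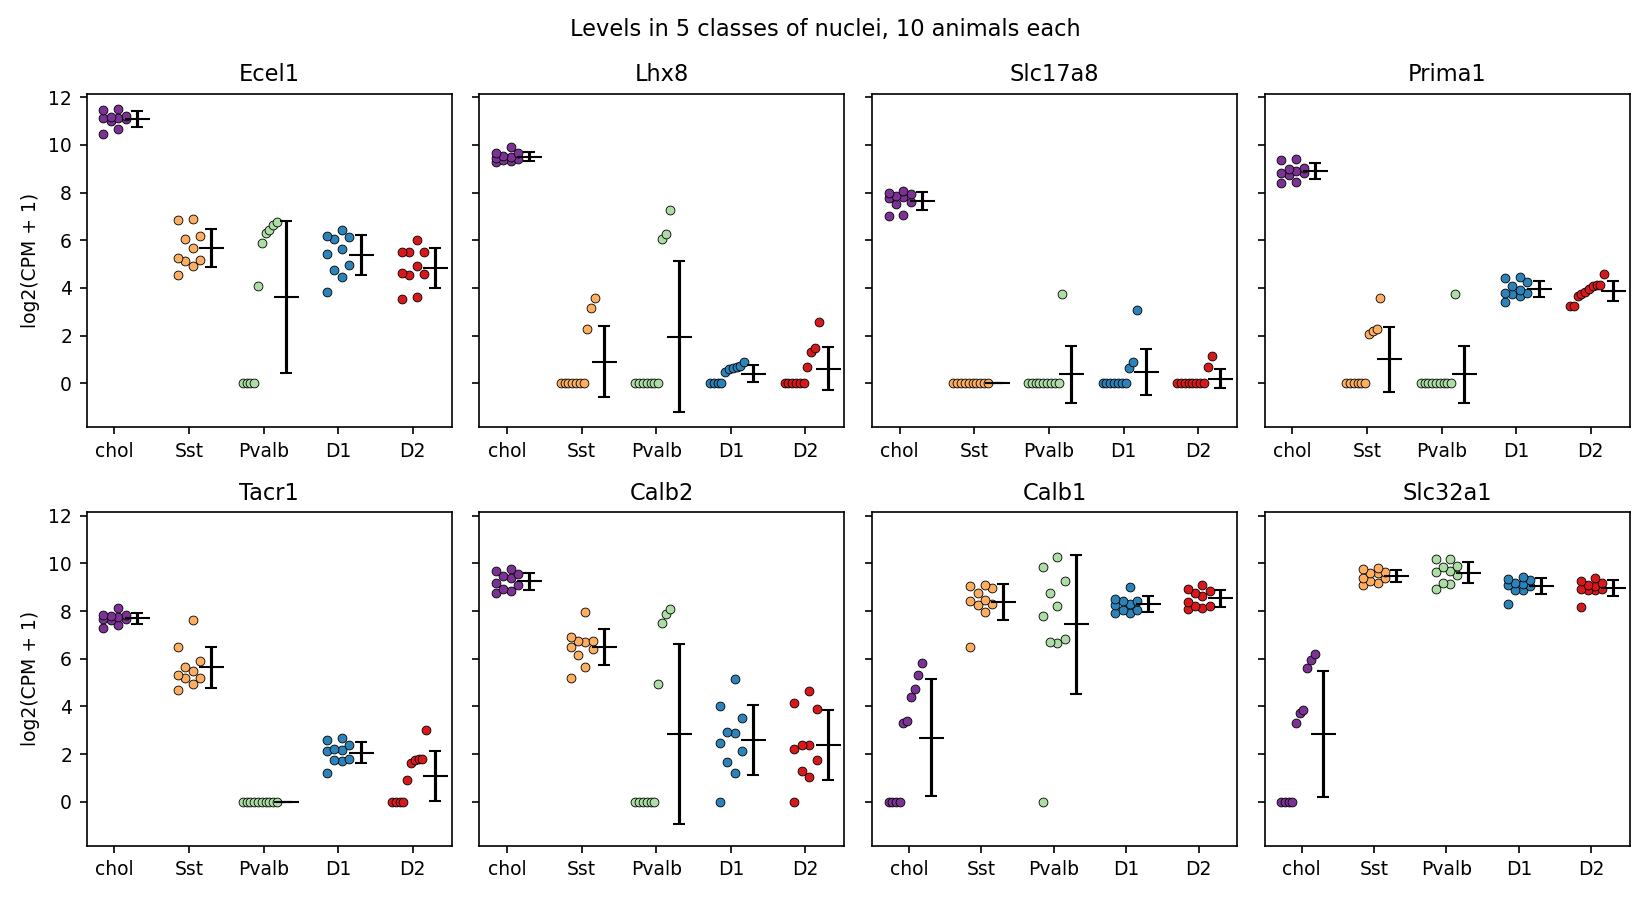
Levels of 8 genes as log2(CPM + 1) in summed nuclei of 5 classes, 1 point per animal (n = 10), with the mean and SD beside the points; chol is cholinergic, Sst somatostatin and Pvalb parvalbumin. Ecel1, Slc17a8 and Prima1 are higher in each of the 10 animals' cholinergic nuclei than in any other class, while Slc32a1 is lower, and Lhx8 and Calb2 reach 151 and 275 CPM in the highest parvalbumin animal.

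Receptors for dopamine and acetylcholine showed a mixed pattern, with 2 to 3 of 6 tested genes lower and 2 higher in each comparison. DRD2, the D2 receptor through which dopamine slows these neurons, had 26.3, 117 and 170 CPM. It was higher than in somatostatin (log2 fold change 2.51, SE 0.322), parvalbumin (2.01, SE 0.432) and D1 nuclei (3.90, SE 0.293), and lower than in D2 nuclei (-1.98, SE 0.158, edgeR adjusted p = 1.04e-18). It lay above the D1 level of the same animal in 10 of 10 animals and below the D2 level in 10 of 10. Chrm4, an inhibitory muscarinic receptor, had 28.0, 120 and 233 CPM. It was higher than in somatostatin (2.68), parvalbumin (1.39) and D2 nuclei (3.89) and lower than in D1 nuclei (-0.51, SE 0.176, edgeR adjusted p = 0.0124). Chrm2, the other inhibitory muscarinic receptor of interneurons, was higher than in D1 (6.12, SE 0.515) and D2 nuclei (6.00, SE 0.537), whose means were below 1 CPM. Against somatostatin and parvalbumin nuclei Chrm2 differed by -0.59 (SE 0.314) and -0.28 (SE 0.417), which did not pass. Chrm1, an excitatory muscarinic receptor, and Chrna7, a nicotinic subunit, were lower than in all 4 classes. Chrm1 had 6 UMIs in the cholinergic nuclei, and its log2 fold change was -5.16 (SE 0.315) against D1 nuclei. For Chrnb2, a nicotinic subunit, no comparison passed, with log2 fold changes from -0.17 to 0.02 and SEs from 0.195 to 0.289.

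Of the receptors for peptides, opioids and hormones, 15 were listed, 5 were tested, and Tacr1, Oprm1 and Oprd1 were higher than in all 4 classes. Tacr1 encodes the substance P receptor, and its level was 155, 209 and 279 CPM (lowest, median, highest). The highest somatostatin animal reached 198 CPM, so these classes overlapped across animals, but Tacr1 was higher in cholinergic nuclei within 10 of 10 animals (log2 fold change 1.94, SE 0.254, edgeR adjusted p = 2.69e-09). No Tacr1 UMI was found in the 143 parvalbumin nuclei of these 10 animals (2 in the 338 of all animals), which puts the level there at least 36.6-fold higher in cholinergic nuclei. Oprm1, the mu opioid receptor, was 123, 223 and 460 CPM and was higher than in somatostatin (2.25, SE 0.231) and parvalbumin nuclei, which held 2 UMIs. Against D1 nuclei Oprm1 was higher by 0.43 (SE 0.157, edgeR adjusted p = 0.0164), in 7 of 10 animals, a call that was lost with DESeq2, without the animal block and without the filter. Oprd1, the delta receptor, was higher by 1.36 (SE 0.216) than in D2 and by 5.81 (SE 0.321) than in D1 nuclei. Oprk1, the kappa receptor, had 2 UMIs in cholinergic nuclei and 3342 in D1 nuclei and was lower than in somatostatin, D1 and D2 nuclei. Crhr1, the receptor of corticotropin-releasing hormone, did not pass the filter and averaged 65.6 ± 51.1 CPM, against at most 5.17 ± 8.99 in the other classes. The oxytocin receptor gene, studied in vole pair bonding, had no UMI in these cholinergic nuclei and averaged 7.32 CPM in D1 and 10.8 in D2 nuclei.

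Among 22 genes of pacemaking currents, 17 were tested. Hcn4 and Cacna1b were among those higher than in all 4 classes, and Kcnn2 was among those lower. Hcn4 encodes a channel of the hyperpolarization-activated current, and it was 28.0, 112 and 189 CPM. Its log2 fold change was 1.54 (SE 0.306) against somatostatin, 3.16 (SE 0.551) against parvalbumin, 4.49 (SE 0.327) against D1 and 4.74 (SE 0.348) against D2 nuclei. Kcnn2 and Kcnn3 encode small-conductance calcium-activated potassium channels. Kcnn2 had log2 fold changes from -2.46 to -3.59, while Kcnn3 was higher than in somatostatin (1.28, SE 0.248) and parvalbumin nuclei (2.53, SE 0.429) and did not pass against D1 (-0.34, SE 0.175) or D2 nuclei (-0.26, SE 0.178). Cacna1b, the N-type calcium channel, had 168, 391 and 460 CPM and smaller log2 fold changes of 0.85 to 1.92. Kcnq3 and Kcnq5, genes of the M-current family, were lower than in D1 nuclei (-1.32 and -3.84) and than in D2 nuclei (-1.30 and -3.70). Nalcn, the sodium leak channel, did not pass in any comparison, with values of -0.21 to 0.24.

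Trophic receptors were uneven as well. The BDNF receptor gene Ntrk2 was lower throughout, between -1.25 (SE 0.189) and -1.95 (SE 0.234) on the log2 scale. Its level was 41.8, 80.7 and 120 CPM in cholinergic nuclei, and the lowest animal of the other classes was at 104 CPM in parvalbumin nuclei. Gfra2, the neurturin receptor gene, was higher than in D1 (4.57, SE 0.425) and D2 nuclei (5.97, SE 0.508). Erbb4, the neuregulin receptor gene, was lower than in somatostatin (-4.89), parvalbumin (-6.39) and D1 nuclei (-4.71), and did not pass against D2 nuclei (-0.33, SE 1.063).

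**Figure D3:**
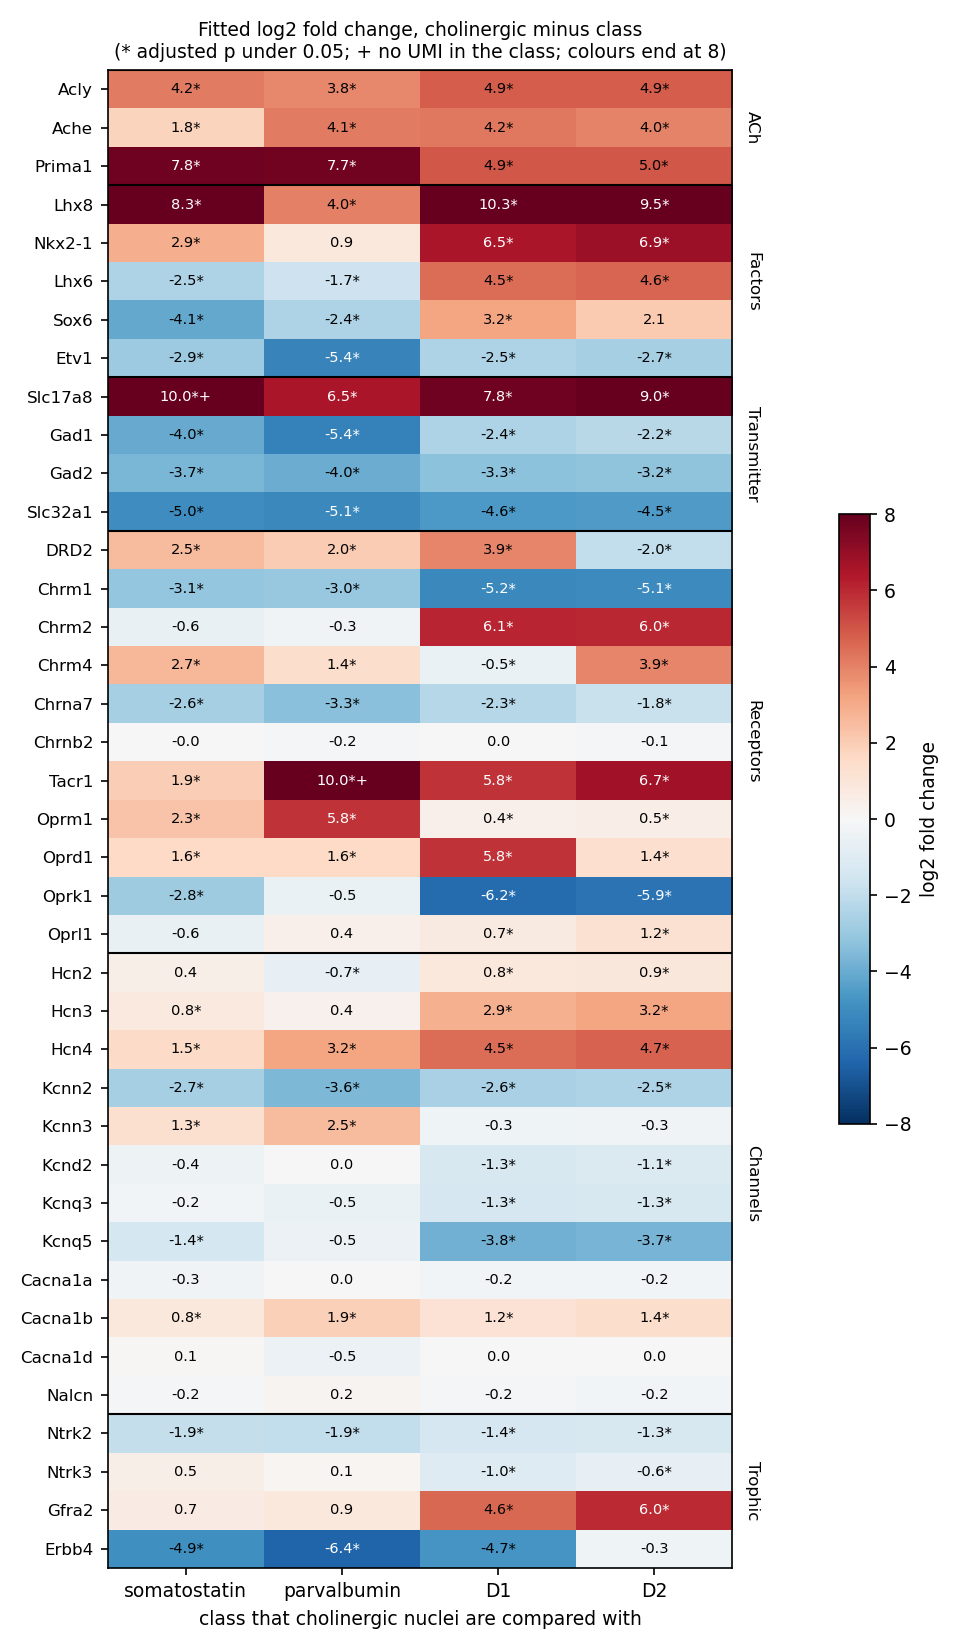
Fitted log2 fold changes of 39 genes by role (ACh is acetylcholine handling, Factors are transcription factors) in cholinergic nuclei minus each of 4 classes, 10 animals, with an asterisk for an edgeR adjusted p under 0.05. A plus sign marks a class without a UMI, where the fitted value is no bound, as for Slc17a8 and Tacr1. Rows such as Lhx8, Acly and Hcn4 are positive in every column, and Gad1 to Slc32a1 are negative in every column.

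The 15 genes that exceeded all 4 classes by the most, by fitted log2 fold change, also included genes outside these roles. Genes this low in the other classes may have passed the filter on low counts only through cholinergic nuclei, so their values describe the class. Piezo2, a mechanically gated channel, was 192, 463 and 770 CPM against at most 25.0 CPM in any animal elsewhere, and its log2 fold change was 7.23 (SE 0.327) against somatostatin nuclei. Kcnk9, an acid-sensitive background potassium channel, had 158, 206 and 580 CPM, with log2 fold changes of 3.80 (SE 0.412) to 8.19 (SE 0.336). Among the others were Slc10a4-ps, Dnah8, Bmper, Plpp4, Tpbgl and Megf10, beside Ecel1, Slc17a8, Prima1, Lhx8 and Acly. The entry Slc10a4-ps bears the name of a pseudogene, and how its reads were divided from those of Slc10a4 is not given in the sources used here. The calretinin gene Calb2 was also higher than in all 4 classes, with 428, 622 and 866 CPM and the smallest difference was 2.58 on the log2 scale (SE 0.250, edgeR adjusted p = 2.4e-14).

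Calb1, the calbindin gene, was among the 10 genes that fell furthest below all 4 classes by fitted log2 fold change. For a gene without a UMI in cholinergic nuclei the fitted value is no bound, so its rank is uncertain. It had 0, 9.13 and 56.0 CPM in cholinergic nuclei, from 9 UMIs, and at least 238 CPM in every animal's D1 nuclei. Its log2 fold change was -4.70 (SE 0.454) against D1 and -4.97 (SE 0.437) against D2 nuclei. Slc6a17, a vesicular amino acid transporter gene, had 7 UMIs, and its log2 fold changes ran from -4.97 to -5.87. Iqgap2, Col25a1, Stac2, Ildr2 and Slit2 had no UMI in the 240 cholinergic nuclei. Iqgap2, a scaffold protein gene, was thus at least 17.1-fold lower than in somatostatin, 26.7-fold than in parvalbumin, 18.2-fold than in D1 and 24.3-fold than in D2 nuclei (floor of 3 counts over the 10 animals). For Slit2, an axon guidance gene, the bound was 25.3-fold against parvalbumin but 1.5-fold against D1 and 1.46-fold against D2 nuclei. Its calls against D1 and D2 nuclei were lost with DESeq2, with doublets left out, without the animal block and over nuclei with a Chat UMI. Cacng8, an AMPA receptor auxiliary subunit gene, had 1 UMI, a ratio of 38.6 below D1 nuclei (counting interval 6.90 to 1525). Cdh7 and Ephx4 had 2 UMIs each.

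Activity and medium spiny neuron genes were lower than in the medium spiny classes. None of 4 tested immediate early genes was higher in cholinergic nuclei, and all 4 were lower than in D1 and in D2 nuclei. Against somatostatin nuclei 2 of the 4 were lower, and against parvalbumin nuclei none was called, with a median log2 fold change of 0.25. Egr1, a transcription factor induced by activity, was 0, 13.0 and 71.9 CPM, with a log2 fold change of -3.77 (SE 0.336) against D1 nuclei. All 8 medium spiny neuron markers were lower than in D1 and D2 nuclei, with median log2 fold changes of -4.14 and -4.29 beside -0.01 over all genes tested. Of the same 8, 4 were lower than in somatostatin nuclei and 3 than in parvalbumin nuclei. The rules asked for no DRD1A or Adora2a UMI in cholinergic nuclei and for at least 2 of either gene in D1 or D2 nuclei. Lower medium spiny markers than in D1 and D2 nuclei thus follow from the choice of nuclei and describe the classes.

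**Figure D4:**
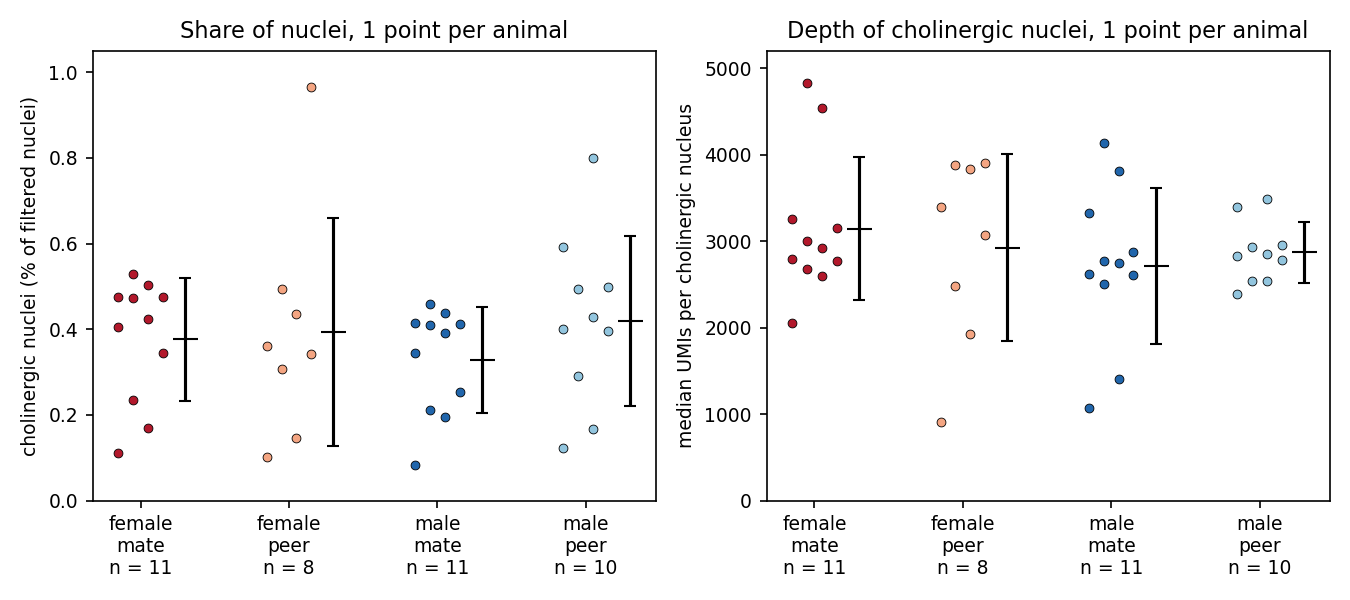
Cholinergic nuclei as a percent of kept nuclei (left) and their median UMIs (right), 1 point per animal in 4 groups of 8 to 11 animals, with the mean and SD beside the points. The groups overlap throughout, and female peer 3 is the highest share at 0.966% and the lowest depth at 909 UMIs.

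The first question across conditions was whether the share of cholinergic nuclei differed by partner or sex. Lowest, median and highest shares were 0.110, 0.423 and 0.529% in female mate animals and 0.103, 0.351 and 0.966% in female peer animals. In males they were 0.0824, 0.392 and 0.459% with a mate and 0.122, 0.415 and 0.801% with a peer. Each group spanned a range of several-fold, and all 4 overlapped. The means were 0.377 ± 0.143% (SD, n = 11), 0.394 ± 0.266% (n = 8), 0.329 ± 0.123% (n = 11) and 0.419 ± 0.199% (n = 10) in the same order.

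No difference in share passed a test. Mates minus peers, averaged over the sexes, came to -0.0539 percentage points (SE 0.0634, two-sided permutation p = 0.370). Females minus males came to 0.0113 points (SE 0.0634, permutation p = 0.856). The pairing difference was -0.0172 points in females (SE 0.104, exact permutation p = 0.870) and -0.0905 in males (SE 0.0731, exact permutation p = 0.224), and their difference was 0.0733 (SE 0.127, permutation p = 0.539). Adjusted over these 5 tests, every p was 0.870. Of the 5 differences, 4 changed sign in at least 1 other setting of depth, rule, denominator or libraries, all but the pairing difference in males. With female peer 3 left out, mates minus peers was -0.0130 points (permutation p = 0.800), the pairing difference in females 0.0644 (exact permutation p = 0.363) and the difference of the pairing differences 0.155 (permutation p = 0.123). Over the nuclei with a Chat UMI, mates minus peers was -0.0725 points (permutation p = 0.129), -0.0483 in females (exact permutation p = 0.578) and -0.0966 in males (exact permutation p = 0.0879), and females minus males was 0.0111 (permutation p = 0.824).

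Over the 40 animals the share of cholinergic nuclei rose with the library's median UMIs (Pearson r = 0.388, permutation p = 0.0166, adjusted over 3 relations 0.0166; Spearman rho = 0.347, permutation p = 0.0300, adjusted 0.0300). Without the 2 farthest animals r was 0.314, and within the 4 groups it lay between 0.243 and 0.663. The rule needs at least 2 UMIs of its genes, so depth enters the share itself. The other relations, with the shares of D1 and D2 nuclei and of nuclei holding Slc17a7, are not given, because the rule leaves out nuclei by the genes that define them. The makeup of the libraries thus varied, with 4.43 to 31.52% D1 and D2 nuclei and 0.667 to 37.34% nuclei with Slc17a7. These shares are read from UMIs, and the part of depth in them was not tested.

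Genes were then compared by partner and sex in the 33 animals with at least 10 cholinergic nuclei (females, 9 with a mate and 6 with a peer; males, 10 and 8). Of 2314 genes tested, edgeR called none by pairing (0%), none by sex (0%) and none for the difference of pairing between the sexes (0%) at an adjusted p under 0.05. DESeq2 also called 0 in each. At an unadjusted p under 0.05, edgeR had 140 genes by pairing (6.05%), 92 by sex (3.98%) and 96 for the interaction (4.15%). Without a filter on low counts, over more genes than these 2314, 4 genes were called in each contrast.

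The genes that mark the class did not pass the test by pairing. Lhx8 was 459.5, 768 and 1080 CPM (lowest, median, highest) in 19 mates and 644, 768 and 1176 in 14 peers, with a log2 fold change of -0.12 (SE 0.119). Ecel1 differed by -0.09 (SE 0.134) and Slc17a8 by 0.17 (SE 0.173), as mates minus peers. The edgeR adjusted p of these 3 was 0.854 to 0.919. Chat, read by the rule, averaged 803 ± 211 CPM in mates and 878 ± 168 in peers, and Slc5a7 1253 ± 197 and 1227 ± 216. Among 7 tested cholinergic markers, 4 acetylcholine genes, 8 channel genes and 3 peptide and opioid receptors, none was called by pairing or sex. For Tacr1 the pairing value was 0.03 (SE 0.162), and for Oprm1 0.03 (SE 0.187). The immediate early genes were too low to be tested here, and their summed level had medians of 153 and 81.9 CPM in females with a mate and a peer and of 84.6 and 87.3 in males, with ranges that overlapped.

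The 3 genes with the lowest p by pairing did not pass the adjustment. Pdzd8, which encodes a protein of contacts between the endoplasmic reticulum and other organelles, was 106, 203 and 349 CPM in mates and 45.2, 113 and 201 in peers. The groups overlapped, and 18 of 19 mates were above the mean of the peers (log2 fold change 0.75, SE 0.185, edgeR adjusted p = 0.230). Fkbp4, a co-chaperone of steroid receptors, was 155, 322 and 611 CPM in mates and 175, 218 and 325 in peers (0.59, SE 0.151, edgeR adjusted p = 0.230). Its lowest value was in a mate, and 18 of 19 mates were above the peers' mean. Rufy3, linked to axon growth and lysosome transport, was lower in mates, with 69.8, 155 and 316 CPM against 112, 241 and 441 (-0.69, SE 0.181, edgeR adjusted p = 0.230). Here 18 of 19 mates were below the peers' mean, and the ranges overlapped widely.

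By sex, Gad1 had the lowest p. It was 0, 24.3 and 167 CPM in 15 females and 0, 97.9 and 348 in 18 males. The difference was -1.78 on the log2 scale (SE 0.411, edgeR adjusted p = 0.126). A UMI of Gad1 was found in 22 of 340 cholinergic nuclei of females (6.47%) and in 71 of 372 of males (19.09%). The ranges overlapped, and 14 of 15 females were below the males' mean. In males 8 nuclei with at least 4 UMIs held 56 of the 131 Gad1 UMIs, and in females 1 nucleus held 4 of 31. Nuclei with oligodendrocyte UMIs held more Gad1 than this, at 163 ± 73.1 CPM in females and 165 ± 70.0 in males of the same libraries. In D1 nuclei Gad1 was 386 ± 40.1 and 371 ± 47.4 CPM, so the means of the sexes lay within 1 SD of each other in both of these classes. The part of free RNA and mixed barcodes in the Gad1 value of cholinergic nuclei was not tested. The other GABA genes had means of 59.9 and 100 CPM for Gad2 and 20.2 and 26.8 for Slc32a1 in females and males, and neither passed the filter on low counts. With blocks of 10 consecutive label numbers as a term, Gad1 was called (-1.99, edgeR adjusted p = 0.0124), as it was without the filter on low counts (-1.76, edgeR adjusted p = 8.07e-06). With at least 20 nuclei per animal the value was -1.14 (edgeR adjusted p = 0.841), and with DESeq2 it was -1.97 (adjusted p = 0.455). Ndufb8, a subunit gene of respiratory complex I, and Prkcb, a protein kinase C gene, followed (-0.72 and -0.60, edgeR adjusted p = 0.640 for both), lower than the males' mean in 15 of 15 females.

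**Figure D5:**
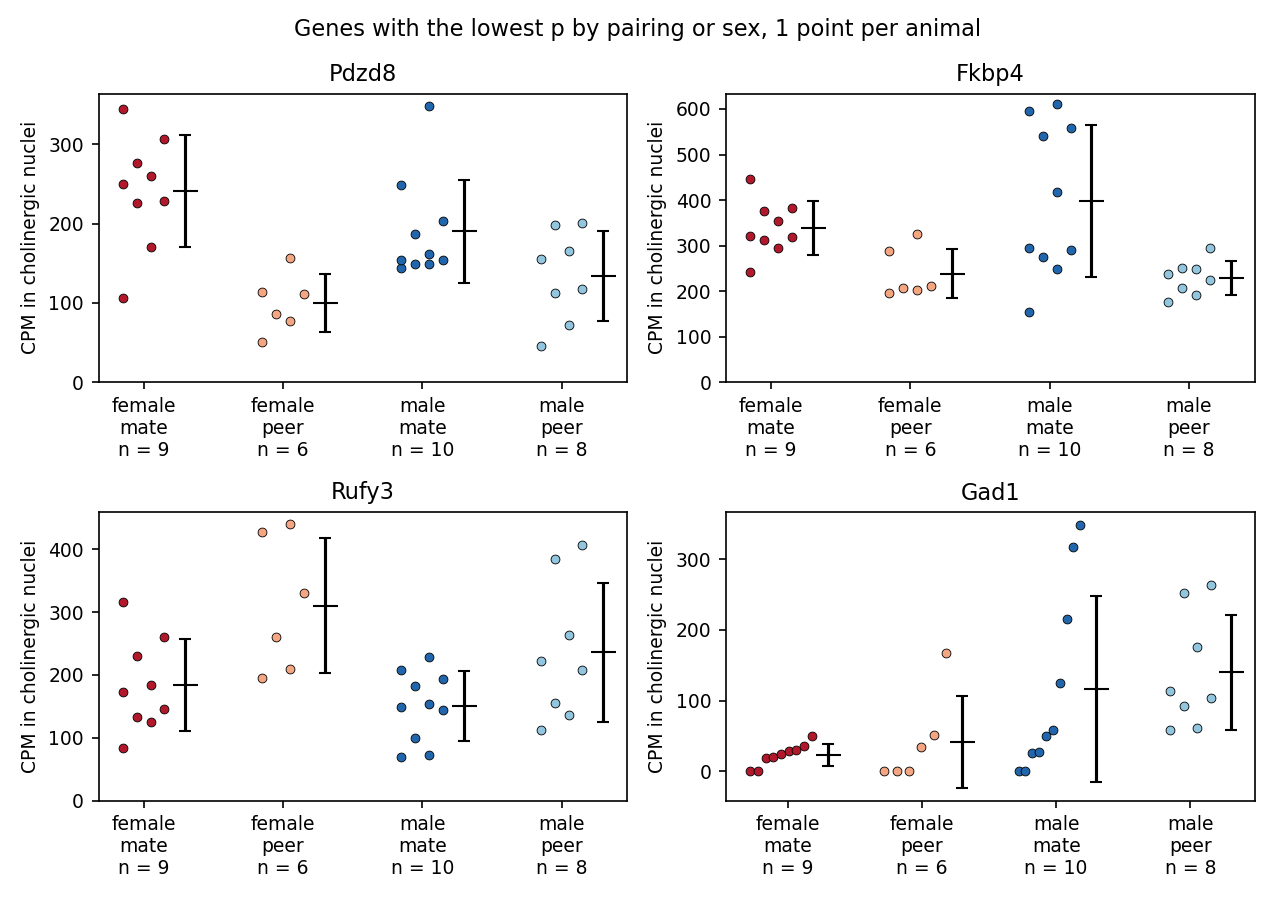
CPM of Pdzd8, Fkbp4, Rufy3 and Gad1 in cholinergic nuclei, 1 point per animal in 4 groups of 6 to 10 animals, with the mean and SD beside the points. Mates lie above peers on average for Pdzd8 and Fkbp4 and below for Rufy3. Gad1 ranges from 0 to 50.2 CPM in female mate, 0 to 167 in female peer, 0 to 348 in male mate and 59.1 to 264 in male peer animals.

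For the difference of the pairing effect between the sexes, Map1a and Pfn2 were among the 3 genes with the lowest p, with log2 values of 0.88 and 0.95 and an edgeR adjusted p of 0.998 for each. Map1a, a microtubule-associated protein gene, averaged 658 ± 240 and 488 ± 92.9 CPM in female mate and female peer animals and 558 ± 187 and 780 ± 147 in male mate and male peer animals. Pfn2, which encodes the actin-binding protein profilin 2, averaged 286.5 ± 53.0 and 223 ± 58.1 CPM in the females and 194 ± 39.9 and 299 ± 136 in the males. The means thus ran in opposite directions in females and males for both genes, and neither difference passed the adjustment.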

How the data were processed

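Single-nucleus libraries of 40 animals were used, 1 matrix per animal. Per gene and barcode the deposited matrices hold UMI counts, without normalization, written by Cell Ranger 3.1.0 per the submitters' processing notes; the genome build and annotation are not given in the sources used here. All libraries list 19130 genes, 3807 of them without a symbol. Of the marker and role lists drawn up for this work, Slc18a3, Avpr1a, Nr3c1, Slc10a4, Zic4, Mobp, Sox11 and Vcan gave no value and were not used here. Some other genes that the naming rule or the lists hold are not reported here. The members and the lists were chosen with earlier results of these data known.

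Barcodes with fewer than 500 UMIs (6375, all in male mate 2) and with more than 5% mitochondrial UMIs (2148) were left out of 194518. Doublets were scored against simulated pairs in each library, at an assumed rate of 0.8% per 1000 barcodes, and were kept except in an alternative. UMIs were summed per animal over cholinergic nuclei, or per animal and class, with at least 10 nuclei each; an animal is 1 replicate. Tests were run with edgeR 4.0.16 (quasi-likelihood, TMM, its filter on low counts) in R 4.3.3, with Benjamini-Hochberg adjustment over all genes tested and a threshold of 0.05. In the class comparisons the animal was a block, and genes read by a rule were left out of calls. CPM is counts per 1000000 UMIs of the summed nuclei. DESeq2 1.42.0 was an alternative. The scripts were tested on simulated data. Shares were tested by two-sided permutation within strata (100000 resamples) or exactly (75582 and 352716 splits) with numpy 2.4.6. The Clopper-Pearson intervals were made with scipy 1.17.1 and the doublet scores with scikit-learn 1.9.0. Clusters were made by the Leiden method in scanpy at a resolution of 0.4.

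Text names the 3 genes with the lowest p per condition contrast, as none was called; the 15 genes highest above and the 10 furthest below all 4 classes; and genes of lists by role. Gene names such as Calb2 that are on the marker lists are named as well. Replicate numbers follow accession order and were not used to pair animals, because which animals lived together is not given. P-values of shares, of relations across animals and of genes by partner or sex rest on the spread between animals. In the class comparisons, where the animal was a block, they rest on the spread that remains within animals.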

Additional observations from a re-analysis of the deposited data

Results flagged for a closer look

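In 4 of 40 groups of 4 to 10 animals, 1 animal stood apart from the others of its group by Dixon's criterion, which chance alone meets in about 1 group in 20. The share of cholinergic nuclei in female peer 3 was 0.966%, with 0.493% in the nearest of the 8 female peer animals, and its cholinergic nuclei had a median of 909 UMIs beside 1649 in the whole library. Pdzd8 in male mate 2 was 349 CPM, with 249 in the nearest of 10 male mate animals. Gad1 in female peer 8 was 167 CPM, with 51.9 in the nearest of 6 female peer animals. Ndufb8 in male peer 2 was 340 CPM, with 224 in the nearest of 8 male peer animals.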

How the results depend on the processing

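Shares of cholinergic nuclei changed sign in several settings, and none passed a test in any. With nuclei thinned to 1000 UMIs, mates minus peers was 0.00425 points, females minus males -0.0629 and mates minus peers in females 0.0218. In this setting male mate 2 had a share of 0.927%, from 6 of 647 nuclei. The next male mate animal, male mate 3, had 0.472%. The thinned differences without male mate 2 were not tested. Females minus males was -0.00655 points with at least 3 UMIs in the rule. In alternatives chosen after seeing the data, females minus males was -0.0296 and mates minus peers in females 0.0644 points without female peer 3; without female peer 1, which had been planned, these were 0.0290 and -0.0527; per 1000 D1 and D2 nuclei, females minus males was -0.919 and the difference of pairing differences -2.95.

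By condition, no gene was called in the settings tried, except without the filter, which called 4 genes in each contrast, and with blocks of 10 label numbers, where 1 was called by sex (Gad1). Without the filter these were, by pairing, among others, ND4L, ENSMOCG00000004642 and ENSMOCG00000019475; by sex, Gad1, Ngfr, Sparcl1 and Apoe; and for the interaction, Sst, Npy and 2 genes without a symbol. ND4L is a mitochondrial gene, and nuclei were kept by their share of mitochondrial UMIs, which limits its level. Its value thus describes the kept nuclei, and no difference by partner is claimed from it. Male peer 2 held 157 of 918 ND4L UMIs. Male peer 5 held 41 of 108 Ngfr UMIs and male peer 9 held 74 of 126 Npy UMIs. These names outside the rule were chosen after their values were seen. Of 86 values of named genes by condition, 84 kept direction and side of the threshold, and 2, both Gad1, came to pass it.

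The number of genes tested changed with the setting, so counts called are given beside it. With at least 20 nuclei per class, 682, 677, 1842 and 1883 of 7988 genes were called against the somatostatin, parvalbumin, D1 and D2 classes. With at least 3 UMIs in each rule, the counts were 637, 661, 1753 and 1761 of 7477. In both settings 2 animals remained. With at least 5 nuclei (29 animals), 2599 and 2915 of 6481 were called against somatostatin and parvalbumin nuclei. Without the filter, 4986 and 5102 of 16455 were called against D1 and D2 nuclei, beside 3237 and 3253 of 6212 as reported. The share of called genes that were higher was then 31.8% against somatostatin nuclei, beside 42.3%. With the parvalbumin class left out (33 animals, chosen after seeing the data), 3092, 5033 and 5147 of 7623 were called against somatostatin, D1 and D2 nuclei. The 300 genes higher and 295 lower than in all 4 classes became 615 and 522 with at least 5 nuclei, 118 and 103 with at least 20, and 105 and 86 with at least 3 UMIs. Genes called in both fits had 1 sign in every setting. Of 2396 values of named genes, 2248 stayed the same, 142 lost the threshold and 6 changed sign, all with 2 animals: Sox6 against D1 (-1.96 with at least 20 nuclei, -2.04 with at least 3 UMIs), Npy against D1 (-0.31 and -0.017) and Npy against D2 (-0.46 and -0.36). The call of Ildr2 against parvalbumin nuclei was lost in several settings. The cause was not tested.

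No paired analysis was made between partner or sex groups, because which animals lived together is not given and replicate numbers follow accession order. The class comparisons were made within animals. Male mate 2 was not among the 10 animals of the class fit, and female peer 1 had 3 cholinergic nuclei and was in neither fit, so leaving them out there gave no value. Depth limits the rare genes: with 10 to 39 nuclei per animal, 2314 of 19130 genes passed the filter by condition.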
